A study of Bos taurus with 14 samples.

Results

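The genes of the extracellular matrix, and of the proteases that cut it, were described in the mammary gland of dry Holstein cows under long or short days. Probe sets were taken by the gene symbol of the array annotation, where a probe set had a single symbol. The symbols were COL number A number, LAMA, LAMB or LAMC with a number, MMP, TIMP, ADAMTS or HAS with a number, and FN1, DCN, LUM, BGN, FMOD, SPARC, POSTN, FBN1, ELN and PDGFRA. The rule used symbols and no measured value, but it was chosen with earlier results of these data known. It found 119 probe sets of 24016, which stand for 62 genes of 9155. Of these genes, 25 had 1 probe set and 37 had several, and where 1 value per gene is given it is that of the probe set with the highest mean over all arrays.

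The study kept cows under long days (LD, lights on for 16 h and off for 8 h) or short days (SD, on for 8 h and off for 16 h) for the whole dry period, when a pregnant cow is not milked. Milking had stopped in every cow about 60 d before the predicted calving, so no group was lactating and none was kept outside the light schedules. Whole mammary biopsies were profiled on Affymetrix bovine arrays at day -24 (3 LD and 3 SD arrays) and at day -9 (4 LD and 4 SD arrays) relative to calving. The comparisons ask how photoperiod, and the approach of calving within each photoperiod, relate to transcript levels in the gland. The labels do not say which cow gave which biopsy, or that each array is a different animal, so the p-values measure the spread between these arrays.

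Fibrillar collagens form the tensile fibres of the stroma that surrounds the milk ducts and alveoli, while type IV collagen and laminins form the basement membrane on which the epithelium rests. Small proteoglycans, fibronectin and elastic fibres organise and bind these networks. Matrix metalloproteinases and ADAMTS enzymes cut them, and TIMPs inhibit the metalloproteinases. In the mammary gland, the balance of synthesis and cutting is known to accompany branching, involution after milking stops and the regrowth of alveoli before lactation.

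Values are log2 signals after RMA, so a difference of 1 is a 2-fold difference in signal. A probe set's signal also depends on how well its probes bind, so levels are compared only within a probe set, between arrays. A mean signal under the lowest lower quartile of any array (4.47) is called dim, one above the highest upper quartile (8.48) bright, and one between them middle. Of the matrix genes, 23 were bright, 25 middle and 14 dim (37.1%, 40.3% and 22.6%), against 38.3%, 48.9% and 12.8% of all genes. The dim genes were ADAMTS6, COL10A1, COL4A3, COL4A4, COL9A1, HAS1, HAS3, MMP1, MMP13, MMP14, MMP15, MMP20, MMP3 and MMP9. The files give no detection call, so it is not known which dim genes were above background.

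Single arrays stood apart for the matrix genes. At day -9, replicate 3 of LD (below, the high LD array) had the highest value of the 14 arrays for 15 of the 62 genes (24.2%, against 3.81% of all genes), and replicate 1 of SD (the low SD array) had the lowest for 20 (32.3%, against 15.8%). At day -24, replicate 2 of SD was the highest array for 11 genes (17.7%, against 6.03%), 8 of them bright. In the low SD array the mean deviation from each gene's average was -0.45 over the fibrillar collagens. Over the fibroblast markers that are no members it was -0.23 (5 of 14 above their own mean). It was 0.73 over the myoepithelial markers (8 of 9 above), 0.64 over the neutrophil markers (7 of 9) and 0.41 over the luminal epithelial markers (10 of 11). In the high LD array it was 0.72 over the matrix glycoproteins and elastic fibre genes. There it was 0.385 over the adipocyte markers (9 of 12), with CIDEC at 1.93, and 0.33 over the same fibroblast markers (11 of 14). The low SD array had nearly the same adipocyte mean, 0.383 (7 of 12), with CIDEA at 2.23. All 11 endothelial markers were above their own mean in both arrays, with a mean deviation of 0.33 in the low SD array and 0.30 in the high LD array. For dim genes, replicate 1 of LD at day -24 was highest for 7 of 14, as it was for 43.6% of all dim genes, and its lower quartile was 4.73 against 4.47 to 4.59 in the other arrays. A further pair, replicate 4 of LD at day -9 and replicate 3 of SD at day -24, shared 280 probe sets that were at least 0.7 lower than in the other 12 arrays, of which 1 was a matrix probe set, of TIMP2. Bright signals were held by 9 of 11 luminal epithelial markers (CSN2, LALBA and EPCAM among them) and 6 of 9 myoepithelial markers (KRT5 among them). So were they by 2 of 8 skeletal muscle markers (MYH7 and CKM). Signals of different probe sets are not compared here, so brightness is no check of the tissue. Of the 12 adipocyte markers measured, 1 (FABP4) was bright, 6 were middle and 5, ADIPOQ and LEP among them, were dim. In such bulk tissue, fewer cells of a type and less RNA per cell cannot be told apart.

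**Figure D1:**
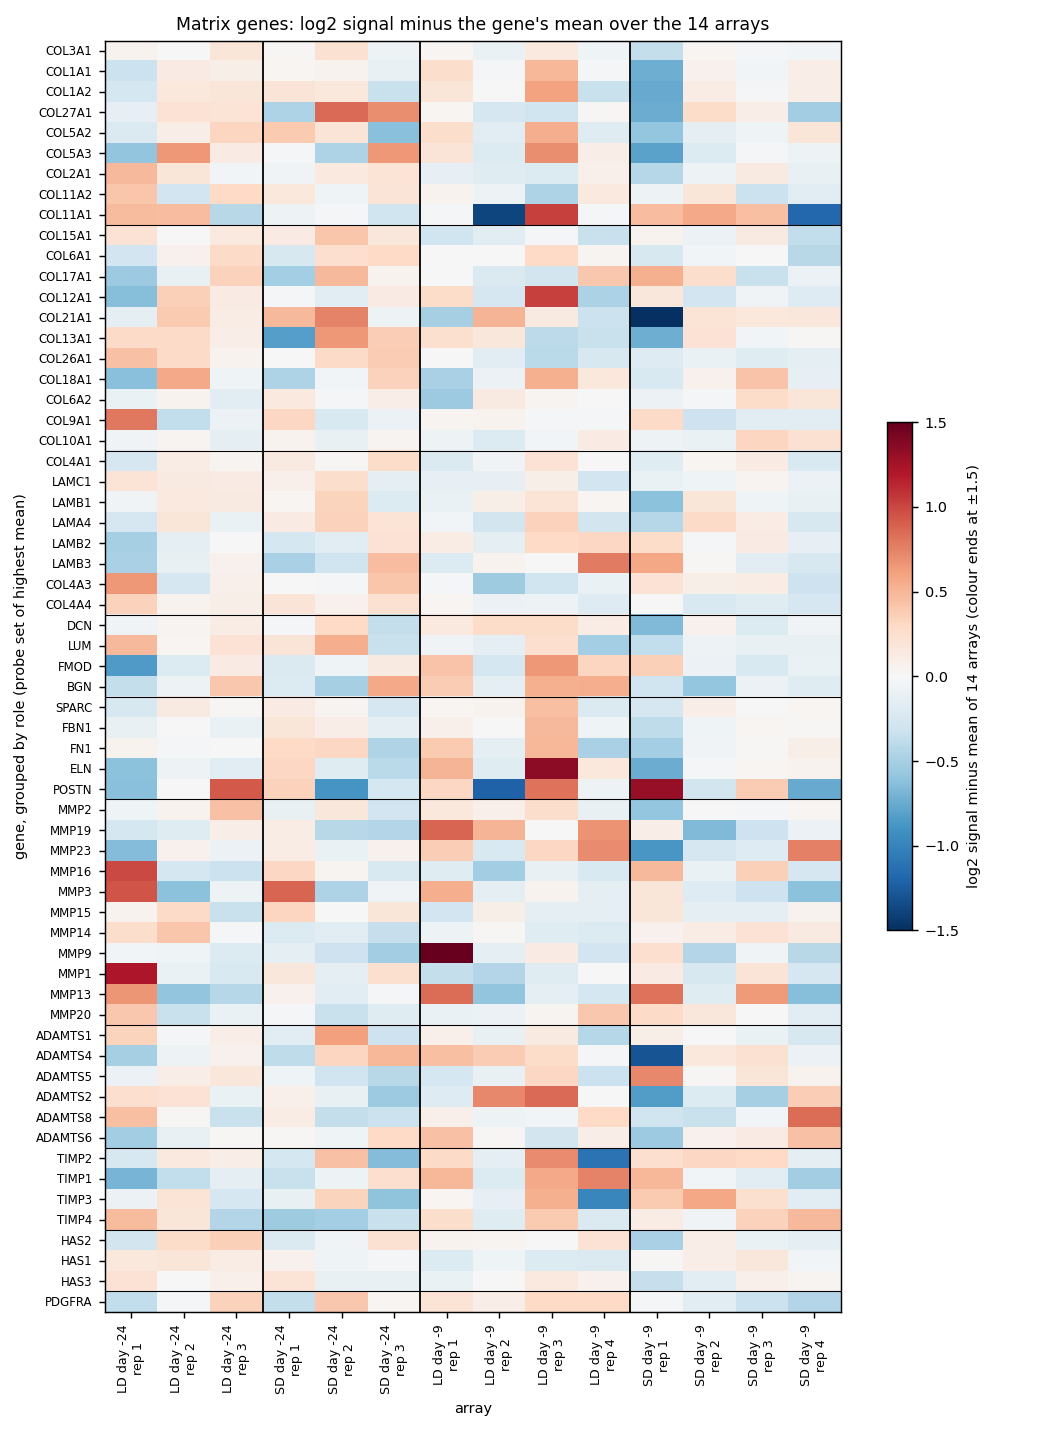
Log2 signal of each of the 62 matrix and matrix protease genes (rows, grouped by role) in each of the 14 arrays (columns, grouped by photoperiod and day), shown as the difference from that gene's mean over the arrays. Replicate 1 of SD at day -9 is the lowest array for 20 genes and replicate 3 of LD at day -9 the highest for 15. Replicate 2 of SD and replicate 1 of LD at day -24 are each the highest for 11.

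No matrix gene passed an adjusted p of 0.05 in any of 7 comparisons, by limma's moderated test with Benjamini-Hochberg adjustment over the 24016 probe sets, and neither did any other probe set. Between the photoperiods at day -24, 0 of 119 matrix probe sets were called, with 0% of all probe sets called, and 3 had an unadjusted p under 0.05 (2.52%, against 2.42% of all), each lower in SD. At day -9 the calls were again 0, and 10 had such a p (8.4%, against 2.77% of all), of which 7 were lower in SD (5.88%, against 1.33%) and 3 higher (2.52%, against 1.44%). Averaged over the days, 0 were called and 4 had such a p (3.36%, against 1.94%). From day -24 to day -9, 0 were called in either photoperiod, with unadjusted p-values under 0.05 for 15 in LD (12.6%, against 7.47%) and 10 in SD (8.4%, against 4.56%). With the photoperiods averaged the day comparison had 13 (10.9%, against 7.72%), and the interaction of photoperiod and day had 9 (7.56%, against 4.15%), again with 0 called. Single arrays moved these unadjusted counts: the lowest counts with an array left out were 6 at day -9 (replicate 2 of SD at that day), 6 between days in SD and 4 for the interaction (replicate 3 of SD at day -24), and 6 between days with the photoperiods averaged (replicate 2 of SD at day -24). With replicate 1 of LD at day -24 left out, the count was 6 between days in LD (5.04%, against 3.85% of all probe sets). It was then 5 between photoperiods at day -24 (4.2%, against 3.99%) and 11 averaged over days (9.24%, against 4.91%). The shares of all probe sets thus moved with this array as well. The comparisons share arrays: a high group enters the photoperiod and the day comparison alike, so the values below are given side by side and are not separate evidence.

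The precision of 3 or 4 arrays per group limits what these comparisons could show. For 54 of the 62 genes at day -24, and 48 at day -9, the 95% interval of the SD minus LD difference lay within 1 log2 unit of 0, a change of less than 2-fold in either direction (88.8% and 91.4% of all genes). For the interaction this held for 32 of 62 genes (71.8% of all genes).

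The arrays of LD and SD did not overlap for 5 of 119 matrix probe sets at day -24 (4.2%, against 5.67% of all probe sets), all lower in SD, and for 6 at day -9 (5.04%, against 2.46%). Those at day -24 were of COL11A1, HAS1 (both probe sets), HAS2 and MMP14. At day -9 they were of BGN, COL6A1, DCN and PDGFRA, lower in SD, and HAS1 and MMP14, higher in SD. Between days 8 did not overlap in LD (6.72%, against 8.98%), all lower at day -9, and 11 in SD (9.24%, against 5.9%). The share of matrix probe sets without overlap was thus below that of all probe sets at day -24 and between days in LD, and above it at day -9 and between days in SD.

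The median SD minus LD difference over the 62 genes was -0.02 at day -24, with 36 genes below 0, and -0.08 at day -9, with 40 below 0. Over all genes the medians were 0.04 and -0.04, with 40.1% and 60.3% below 0. The shift at day -9 lay with the bright genes: 18 of 23 were lower in SD, with a median of -0.18, beside 59.2% of all bright genes, with a median of -0.03. Middle genes had a median of -0.06 (all middle genes -0.07) and dim genes one of 0.05 (all dim genes 0.02). The mean deviation of the bright genes was 0.09, -0.07, 0.30 and -0.11 in the LD arrays at day -9, and -0.23, 0.07, -0.02 and -0.15 in the SD arrays, so the groups overlapped. Without the high LD array and the low SD array, the median over the 62 genes at day -9 was 0.02. Averaged over days, 44 of the 62 genes were below 0 (median -0.06, all genes 0.00, with 49.9% below 0).

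**Figure D2:**
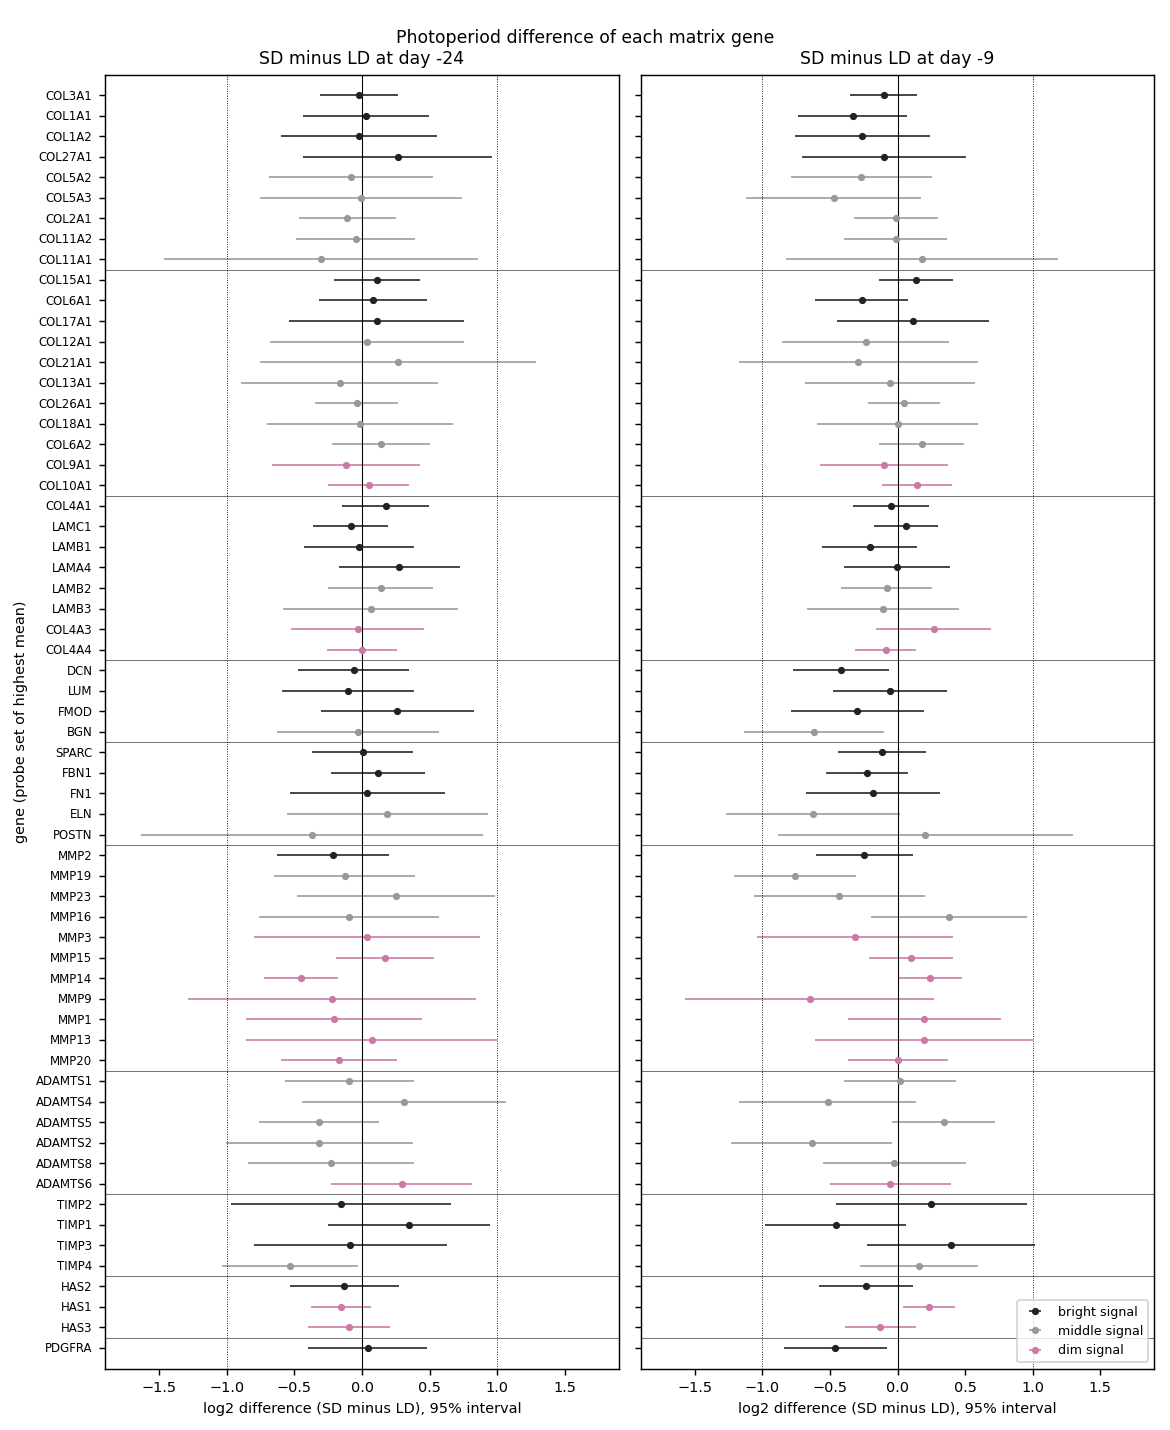
SD minus LD difference in log2 signal for each of the 62 genes at day -24 and at day -9, with its 95% interval from limma, grouped by role and coloured by signal class. Bright genes sit mostly below 0 at day -9 (18 of 23), and the intervals are wide beside the differences.

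The fibrillar collagens, which build the stromal fibres, were slightly lower in SD at day -9 in 8 of 9 measured genes (median -0.10, range -0.47 to 0.18), and in 7 of 9 at day -24 (median -0.02). None passed the test. COL1A1, which encodes a chain of type I collagen, read 11.83, 12.27 and 12.24 in LD and 12.18, 12.21 and 12.04 in SD at day -24, and 12.42, 12.13, 12.64 and 12.13 in LD and 11.42, 12.22, 12.11 and 12.25 in SD at day -9. Its lowest and its highest value of all were both at day -9, in the low SD array and the high LD array, and the groups overlapped at both days. The difference at day -9 was -0.33 (95% interval -0.74 to 0.07) with an adjusted p of 0.984 by limma, and -0.14 without the low SD array. COL1A2, the partner chain of type I collagen, read 11.71, 12.13 and 12.15 in LD and 12.16, 12.13 and 11.63 in SD at day -24, and 12.15, 11.97, 12.57 and 11.64 in LD and 11.21, 12.08, 11.93 and 12.06 in SD at day -9. The pattern was that of COL1A1, with the same arrays lowest and highest, and the difference of -0.26 (95% interval -0.76 to 0.24) came to -0.06 without the low SD array. COL3A1, the chain of type III collagen, which forms finer fibrils with type I, read 12.49, 12.44 and 12.62 in LD and 12.45, 12.66 and 12.36 in SD at day -24, and 12.47, 12.34, 12.59 and 12.37 in LD and 12.08, 12.47, 12.42 and 12.40 in SD at day -9. Apart from one SD array at day -9 these values spanned little, and the difference at that day was -0.10 (95% interval -0.35 to 0.15). With the low SD and the high LD array both left out, COL1A1 was at -0.04, COL1A2 at 0.10 and COL3A1 at 0.03.

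Across days, COL27A1 was lower at day -9 in both photoperiods, with differences of -0.22 in LD and -0.59 in SD (-0.34 without replicate 2 of SD at day -24), without passing the test. COL5A3, whose chain belongs to the type V collagens that regulate fibril width, had the lowest SD minus LD difference of the fibrillar genes at day -9. COL2A1, a cartilage collagen, had 4 probe sets, 3 of them dim, and the one with the smallest p between days read 4.69, 4.19 and 4.20 in LD and 4.43, 4.04 and 4.32 in SD at day -24, and 3.96, 3.99, 4.09 and 3.86 in LD and 3.68, 4.09, 4.02 and 4.03 in SD at day -9. It was lower at day -9 in LD without overlap, and the difference was -0.34 with the photoperiods averaged (adjusted p = 0.636, limma).

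Basement membrane genes were close together in the photoperiods, with median differences of 0.03 at day -24 and -0.07 at day -9 over 8 genes, 6 of them below 0 at day -9. COL4A1, a chain of the type IV collagen network, read 11.15, 11.51 and 11.45 in LD and 11.54, 11.42 and 11.68 in SD at day -24, and 11.19, 11.35, 11.62 and 11.39 in LD and 11.22, 11.43, 11.52 and 11.18 in SD at day -9. All groups overlapped, the day -9 difference was -0.05 (95% interval -0.33 to 0.23), and its sign changed in some refits. LAMC1, the laminin gamma chain shared by most laminins, read 10.83, 10.75 and 10.74 in LD and 10.69, 10.89 and 10.48 in SD at day -24, and 10.50, 10.50, 10.71 and 10.33 in LD and 10.52, 10.56, 10.67 and 10.53 in SD at day -9. Each LD array at day -9 was below each LD array at day -24, a difference of -0.27, adjusted p = 0.651 by limma, while SD minus LD at day -9 was 0.06 (95% interval -0.18 to 0.30). Another LAMC1 probe set went the other way in SD, where it was 0.45 higher at day -9 without overlap, or 0.28 without replicate 3 of SD at day -24, one of the arrays that share many low probe sets.

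COL4A4, a type IV chain best known from specialised basement membranes, was dim and read 4.04, 3.74 and 3.78 in LD and 3.88, 3.75 and 3.92 in SD at day -24, and 3.72, 3.60, 3.62 and 3.50 in LD and 3.68, 3.45, 3.51 and 3.44 in SD at day -9. Its day -9 arrays lay below its day -24 arrays in both photoperiods, with an average difference of -0.29 (95% interval -0.46 to -0.11, adjusted p = 0.636, limma). Its other probe set differed by -0.07 in LD and 0.01 in SD, and 69.7% of all dim genes were lower at day -9 with the photoperiods averaged. A probe set of LAMA4, a laminin alpha chain of vessel and fat cell basement membranes, read 8.81, 8.98 and 8.88 in LD and 8.97, 9.39 and 8.99 in SD at day -24, and 8.83, 8.42, 8.90 and 8.45 in LD and 8.41, 8.96, 8.79 and 8.57 in SD at day -9. It was lower at day -9 in SD, without overlap, with a difference of -0.43, and of -0.34 with the photoperiods averaged, and the brighter LAMA4 probe set differed by -0.15 in that comparison.

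Among the other 11 collagens 5 were below 0 at day -9 (median 0.00). COL26A1 and COL15A1 had probe sets among those of smallest p between days, and COL6A1 and COL17A1, given below, in other comparisons. COL26A1 read 5.73, 5.57 and 5.34 in LD and 5.28, 5.57 and 5.67 in SD at day -24, and 5.28, 5.13, 4.88 and 5.04 in LD and 5.10, 5.18, 5.11 and 5.14 in SD at day -9. No day -9 array reached the lowest day -24 array of its photoperiod, and the average difference between days was -0.42 (95% interval -0.62 to -0.22), with the smallest limma p of any matrix probe set in that comparison (adjusted p = 0.636, limma). COL15A1, whose product links basement membranes to the fibres beneath, read 10.56, 10.34 and 10.49 in LD and 10.47, 10.76 and 10.51 in SD at day -24, and 10.04, 10.18, 10.32 and 10.004 in LD and 10.39, 10.25, 10.47 and 9.97 in SD at day -9. In LD the day -9 arrays lay below the day -24 arrays and in SD they overlapped, with an average difference of -0.32 (95% interval -0.53 to -0.11) and an adjusted p of 0.636 by limma. Another COL15A1 probe set differed by 0.04.

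COL6A1, a chain of the beaded filaments around cells, had a difference of -0.27 at day -9 in its brightest probe set. A further COL6A1 probe set was lower in SD at both days, with differences of -0.35 and -0.11, the second of which was 0.011 without the high LD array. COL17A1 encodes a transmembrane collagen of hemidesmosomes, the anchors of epithelium to the basement membrane. One of its probe sets read 7.37, 8.16 and 8.46 in LD and 7.39, 8.21 and 7.12 in SD at day -24, and 7.80, 7.58, 7.26 and 7.37 in LD and 8.41, 8.43, 7.98 and 7.77 in SD at day -9. In SD only replicate 2 of day -24 reached the range of day -9, while in LD the day -9 arrays were lower on average with overlap, and the interaction was 1.06 (95% interval 0.18 to 1.95), adjusted p = 0.900 by limma. The brighter COL17A1 probe set had an interaction of 0.01.

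The small leucine-rich proteoglycans, which bind collagen fibrils and set their spacing, were lower in SD at day -9 in 4 of 4 genes (median -0.36, all genes -0.04). At day -24 their median was -0.05. DCN (decorin) read 11.51, 11.61 and 11.67 in LD and 11.55, 11.86 and 11.20 in SD at day -24, and 11.70, 11.84, 11.84 and 11.67 in LD and 10.89, 11.62, 11.35 and 11.51 in SD at day -9. At day -9 every SD array lay below every LD array, and the difference was -0.42 (95% interval -0.77 to -0.06), adjusted p = 0.984 by limma. Without the low SD array it was -0.27. BGN (biglycan) read 7.52, 7.80 and 8.28 in LD and 7.68, 7.38 and 8.45 in SD at day -24, and 8.25, 7.73, 8.41 and 8.43 in LD and 7.57, 7.30, 7.79 and 7.69 in SD at day -9 in its brighter probe set. At day -9 LD replicate 2 lay just below the highest SD array and the other LD arrays above all SD arrays, and the difference was -0.62 (95% interval -1.13 to -0.10), adjusted p = 0.984 by limma. Its other probe set read 6.76, 6.48, 7.17 and 6.96 in LD and 6.29, 5.99, 6.32 and 6.22 in SD at day -9, with no overlap, and differed by -0.64 (95% interval -1.11 to -0.16), adjusted p = 0.984 by limma. Both BGN probe sets gave a similar size. FMOD (fibromodulin) differed by -0.30 and LUM (lumican) by -0.06, which came to -0.17 and 0.065 without the high LD array.

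Between days, the proteoglycans had a median difference of 0.25 in LD, with 3 of 4 genes above 0, and -0.22 in SD. The interaction median was -0.46 (all genes -0.09). The mean deviation of the 4 genes was -0.07 to 0.43 in LD and -0.24 to -0.11 in SD at day -9. These ranges did not overlap, and over the same arrays the fibroblast markers outside the matrix genes ran from -0.30 to 0.33 in LD and from -0.23 to 0.17 in SD. Of the 14 measured fibroblast markers, 10 were lower in SD at day -9 (median -0.12), where 60.3% of all genes were lower. The part of these markers' cells in the proteoglycan values was not tested.

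**Figure D3:**
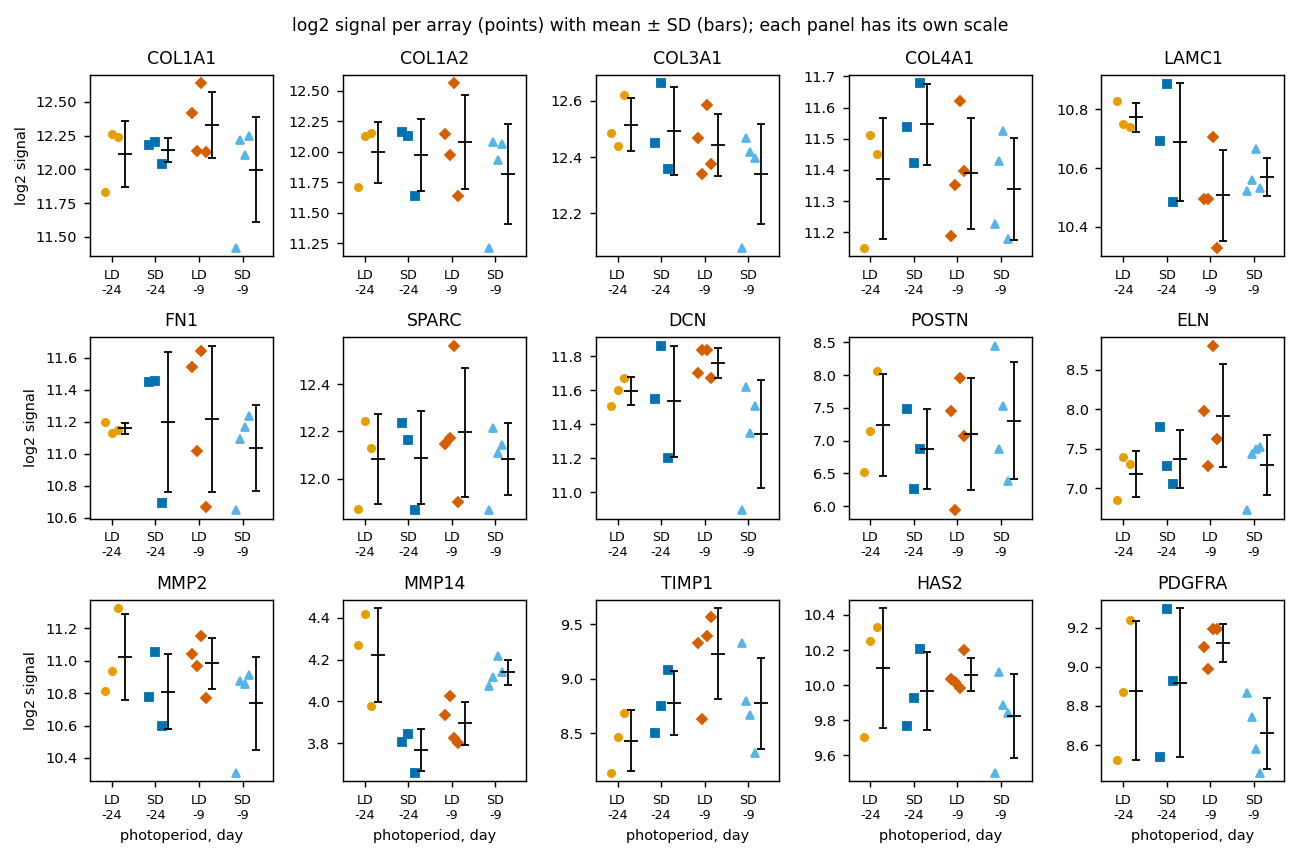
Log2 signal of 15 genes chosen by name (COL1A1, COL1A2, COL3A1, COL4A1, LAMC1, FN1, SPARC, DCN, POSTN, ELN, MMP2, MMP14, TIMP1, HAS2 and PDGFRA) in LD and SD at day -24 (3 arrays each) and day -9 (4 arrays each). Points are arrays and bars the group mean with its standard deviation. At day -9 DCN and PDGFRA were lower in SD without overlap, MMP14, which is dim, was higher in SD without overlap, and the collagens overlapped.

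The matrix glycoproteins and elastic fibre genes had a median difference of -0.18 at day -9, with 4 of 5 below 0, and 0.04 at day -24. FN1 (fibronectin), a cell-binding glycoprotein, read 11.20, 11.13 and 11.15 in LD and 11.45, 11.46 and 10.69 in SD at day -24, and 11.54, 11.02, 11.65 and 10.67 in LD and 10.64, 11.09, 11.16 and 11.24 in SD at day -9. The LD arrays at day -9 held both high and low values, and the difference of -0.18 (95% interval -0.68 to 0.31) was well within them. SPARC, a collagen-binding protein secreted by stromal cells, read 11.87, 12.25 and 12.13 in LD and 12.24, 12.16 and 11.87 in SD at day -24, and 12.15, 12.17, 12.56 and 11.90 in LD and 11.87, 12.22, 12.11 and 12.14 in SD at day -9 and differed by -0.11 (95% interval -0.44 to 0.21) at day -9. Without the high LD and the low SD array, FN1 was at 0.09 and SPARC at 0.08. POSTN (periostin), a matrix protein of growing stroma, read 6.52, 7.15 and 8.06 in LD and 7.49, 6.26 and 6.87 in SD at day -24, and 7.46, 5.93, 7.95 and 7.06 in LD and 8.45, 6.87, 7.53 and 6.38 in SD at day -9. It varied by more than 1 log2 unit within each group, and its difference at day -9, 0.21 (95% interval -0.89 to 1.30), could hardly be resolved.

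ELN (elastin), the core of elastic fibres, read 6.85, 7.39 and 7.31 in LD and 7.77, 7.28 and 7.05 in SD at day -24, and 7.97, 7.28, 8.80 and 7.62 in LD and 6.72, 7.43, 7.49 and 7.52 in SD at day -9 in its brighter probe set. The high LD array held the highest of all values and the low SD array the lowest. The difference at day -9 was -0.63 (95% interval -1.27 to 0.02), adjusted p = 0.984 by limma. It was -0.33 without the high LD array and -0.14 without both. Another ELN probe set had an SD minus LD difference of -0.31 at day -24 (-0.14 without replicate 1 of LD at that day, the array with the raised lower quartile) and of -0.33 (95% interval -0.59 to -0.07) averaged over days, with an adjusted p of 0.9999 by limma.

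Matrix metalloproteinases showed no common direction: at day -9 the median over 11 genes was 0.01 and at day -24 it was -0.13, with 7 of 11 below 0. MMP2, the gelatinase that cuts basement membrane collagen, read 10.81, 10.94 and 11.32 in LD and 10.78, 11.05 and 10.60 in SD at day -24, and 11.04, 10.97, 11.15 and 10.77 in LD and 10.31, 10.87, 10.86 and 10.91 in SD at day -9. One SD array at day -9 was low and the others lay close to LD, and the difference of -0.25 (95% interval -0.60 to 0.11) was -0.10 without that array. MMP19, a metalloproteinase of basement membrane proteins, read 7.44, 7.52 and 7.80 in LD and 7.82, 7.29 and 7.27 in SD at day -24, and 8.58, 8.22, 7.71 and 8.37 in LD and 7.80, 7.05, 7.39 and 7.62 in SD at day -9. At day -9 only the high LD array came below the highest SD array, and the difference was -0.76 (95% interval -1.21 to -0.31), adjusted p = 0.984 by limma. It was -1.04 without the high LD and the low SD array. In LD it was also 0.64 higher at day -9 than at day -24, and in SD by 0.01. A dim MMP19 probe set differed by 0.02 at day -9. Of the 10 macrophage markers measured, 9 were lower in SD at day -9 (median -0.23), with mean deviations from 0.0016 to 0.68 in LD and from -0.46 to 0.09 in SD, and their part in the MMP19 values was not tested.

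MMP14, a membrane-bound collagenase that also activates MMP2, was dim in its brightest probe set and read 4.27, 4.42 and 3.98 in LD and 3.80, 3.84 and 3.66 in SD at day -24, and 3.93, 4.02, 3.82 and 3.80 in LD and 4.08, 4.12, 4.22 and 4.14 in SD at day -9. All SD arrays were below all LD arrays at day -24 and above all of them at day -9. The differences were -0.45 (95% interval -0.73 to -0.18) and 0.24 (95% interval 0.01 to 0.48), and the interaction was 0.70 (95% interval 0.34 to 1.06), adjusted p = 0.900 by limma. The whole span was under 1 log2 unit at the low end of the array's range, and the other MMP14 probe sets did not share the pattern. They differed by -0.20 and -0.11 at day -24, by -0.24 and -0.04 at day -9, and had interactions of -0.04 and 0.07, so the higher day -9 value in SD and the interaction are those of 1 dim probe set of 3. Replicate 1 of LD at day -24, the array with the raised lower quartile, was not the highest of its group for this probe set. MMP9, the other gelatinase, was dim and had one value apart, in replicate 1 of LD at day -9.

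The ADAMTS proteases, which include the enzymes that trim procollagen and cut large proteoglycans, had medians of -0.16 at day -24 and -0.04 at day -9 over 6 genes. ADAMTS2, the procollagen N-proteinase, read 5.30, 5.26 and 4.94 in LD and 5.12, 4.93 and 4.50 in SD at day -24, and 4.85, 5.76, 5.90 and 5.05 in LD and 4.21, 4.84, 4.54 and 5.41 in SD at day -9. SD was lower on average at both days, with overlap, and the difference averaged over days was -0.48 (95% interval -0.93 to -0.02), adjusted p = 0.9999 by limma. ADAMTS5, which cuts aggrecan and versican, read 5.24, 5.44 and 5.51 in LD and 5.27, 5.04 and 4.92 in SD at day -24, and 5.07, 5.22, 5.65 and 5.01 in LD and 6.06, 5.35, 5.52 and 5.39 in SD at day -9. In SD every day -9 array was above every day -24 array, by 0.50, and the interaction was 0.66 (95% interval 0.08 to 1.24), adjusted p = 0.900 by limma. The other ADAMTS5 probe set overlapped between days in SD and had a smaller interaction. In SD it read 4.73, 4.96 and 4.54 at day -24, and 5.33, 4.90, 5.22 and 4.93 at day -9.

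The 4 inhibitors of metalloproteinases did not share a direction, with a median SD minus LD difference of -0.12 at day -24 and 0.20 at day -9. TIMP1, the soluble inhibitor made by many stromal and immune cells, read 8.13, 8.47 and 8.69 in LD and 8.50, 8.75 and 9.08 in SD at day -24, and 9.33, 8.62, 9.40 and 9.57 in LD and 9.33, 8.79, 8.66 and 8.31 in SD at day -9. In LD each array at day -9 but one was above each array at day -24, with a difference of 0.80 (95% interval 0.24 to 1.37), adjusted p = 0.651 by limma, and -0.00 in SD. Its second probe set gave 0.74 for that LD difference. SD minus LD was 0.35 at day -24 (0.20 without replicate 3 of SD at that day) and -0.46 (95% interval -0.98 to 0.06) at day -9 (-0.30 without replicate 4 of SD at that day). TIMP4 showed the day difference in SD instead. It read 7.95, 7.66 and 7.04 in LD and 6.95, 6.96 and 7.14 in SD at day -24, and 7.74, 7.29, 7.87 and 7.25 in LD and 7.59, 7.42, 7.82 and 7.96 in SD at day -9, so that in SD the day -9 arrays all lay above the day -24 arrays, by 0.68 (95% interval 0.21 to 1.15), adjusted p = 0.970 by limma. The other TIMP4 probe sets, at 0.54 and 0.42, likewise did not overlap between days in SD. In LD the day difference of TIMP4 was -0.01.

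TIMP2, which inhibits MMP2 and also takes part in its activation, and TIMP3, which binds to the matrix, differed by 0.25 and 0.40 at day -9. Both values rest on replicate 4 of LD at day -9, the lowest of the 14 arrays for each, without which they were -0.10 and 0.12. Another TIMP2 probe set had an interaction of -0.63, adjusted p = 0.900 by limma, where the brightest had 0.41, or 0.060 without that LD array. The 2 arrays that shared many low probe sets were the lowest of the 14 for 11 matrix probe sets (9.24%, against 10.5% of all probe sets), among them probe sets of TIMP2, TIMP3, LAMC1, ADAMTS5 and HAS2. With these 2 arrays left out, the ADAMTS5 interaction of 0.66 was 0.51.

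Hyaluronan synthases make the large sugar polymer that hydrates the stroma. HAS2, the main synthase of connective tissue, had 3 probe sets that did not behave alike. The middle-signal probe set read 6.21, 6.24 and 7.00 in LD and 5.62, 5.44 and 4.51 in SD at day -24, and 5.93, 6.01, 6.14 and 5.25 in LD and 5.90, 5.87, 6.04 and 6.30 in SD at day -9. At day -24 all SD arrays lay below all LD arrays, with SD replicate 3 the lowest. The difference of -1.29 (95% interval -1.95 to -0.63) had an adjusted p of 0.9997 by limma. It was -0.95 without SD replicate 3, and the interaction of 1.49 was 0.95 without the 2 arrays with many low probe sets. The brightest HAS2 probe set read 9.71, 10.25 and 10.33 in LD and 9.77, 9.92 and 10.21 in SD at day -24, and 10.03, 10.02, 9.98 and 10.20 in LD and 9.50, 10.08, 9.88 and 9.84 in SD at day -9. Its groups overlapped at both days, and it differed by -0.13 at day -24 and -0.23 (95% interval -0.58 to 0.11) at day -9. The last differed by 0.11 at day -24. HAS1 was dim in both its probe sets, and the brighter of them read 4.22, 4.25 and 4.18 in LD and 4.13, 4.00 and 4.05 in SD at day -24, and 3.86, 3.99, 3.86 and 3.84 in LD and 4.08, 4.17, 4.24 and 4.02 in SD at day -9. In this probe set SD lay below LD at day -24 and above it at day -9, each time without overlap, with an interaction of 0.39, adjusted p = 0.900 by limma. The other HAS1 probe set differed by -0.22 at day -24 and -0.08 at day -9, with an interaction of 0.13.

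**Figure D4:**
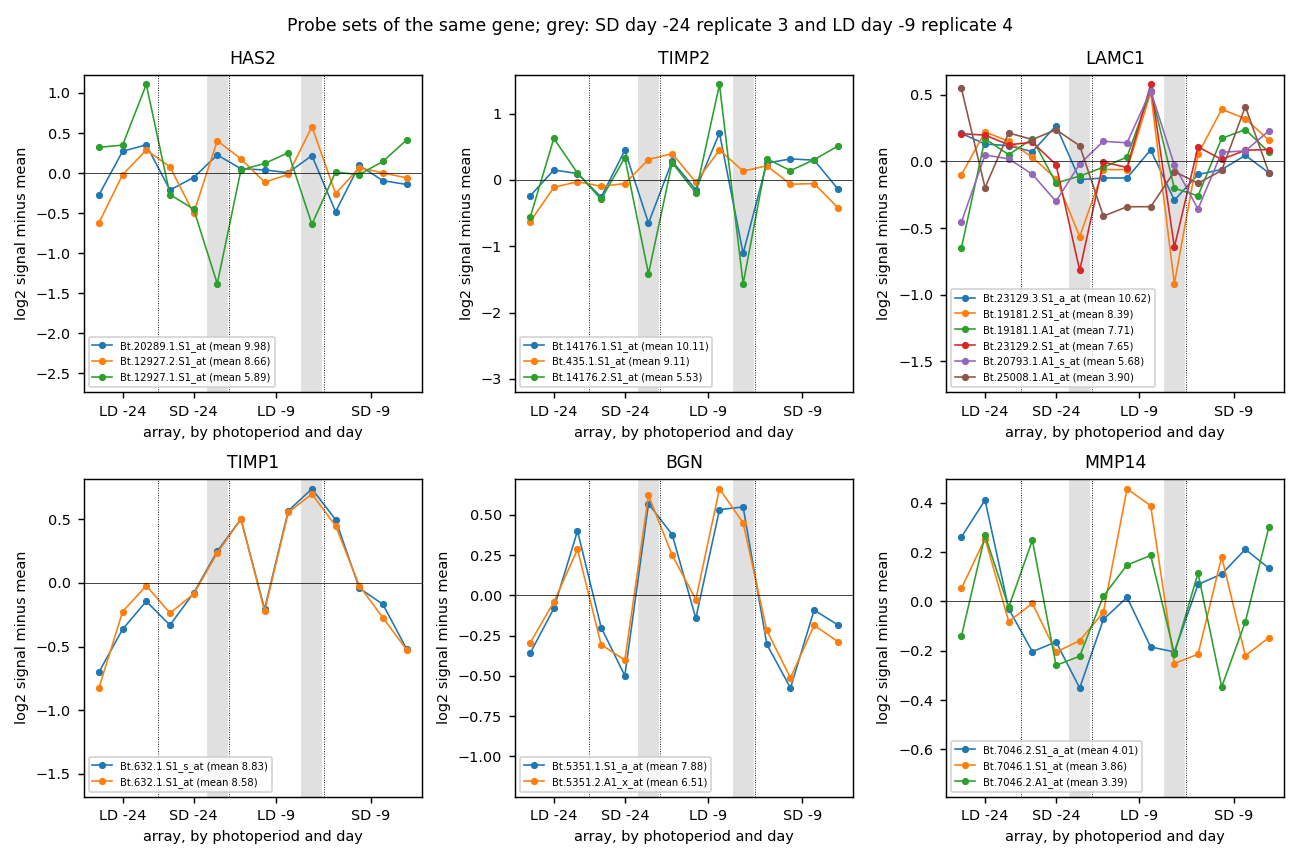
Log2 signal of every probe set of HAS2, TIMP2, LAMC1, TIMP1, BGN and MMP14 in the 14 arrays, by group. Each is shown as the difference from that probe set's own mean over the arrays. The 2 arrays that share many low probe sets (replicate 3 of SD at day -24, replicate 4 of LD at day -9) are in grey. The probe sets of TIMP1 and of BGN run together, while only one of the 3 HAS2 probe sets separates SD from LD at day -24.

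PDGFRA, the PDGF receptor carried by stromal fibroblasts, read 8.53, 8.87 and 9.24 in LD and 8.54, 9.30 and 8.93 in SD at day -24, and 9.10, 8.99, 9.20 and 9.19 in LD and 8.87, 8.74, 8.58 and 8.46 in SD at day -9 in its brightest probe set. Every SD array at day -9 was below every LD array, with a difference of -0.46 (95% interval -0.84 to -0.08), adjusted p = 0.984 by limma. It was -0.50 without the high LD and the low SD array. The other PDGFRA probe sets differed by 0.02 and 0.03. Such disagreement was common: of the 37 genes with several probe sets, 21 at day -24 and 20 at day -9 had SD minus LD differences of both signs.

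Some genes that work together in the matrix varied together between arrays of the same group. After each group's mean was taken out, COL1A1 and COL1A2 had r = 0.93 and Spearman's rho = 0.87 over the 14 arrays (permutation p = 0.00055 for both, adjusted 0.0033 over 6 pairs). With the 2 arrays farthest out on COL1A1 left out, r was 0.90. COL1A1 and COL3A1 had r = 0.81 (permutation p = 0.00552, adjusted 0.0166) and rho = 0.66 (p = 0.0172, adjusted 0.0515), and r = 0.71 without the farthest arrays. DCN and LUM had r = 0.64 (permutation p = 0.0138, adjusted 0.0275) and rho = 0.59 (p = 0.0514, adjusted 0.0971), and r = 0.47 without the farthest arrays, the low SD array among them. MMP2 and TIMP2 had r = 0.52 (permutation p = 0.0295, adjusted 0.0443) and rho = 0.52 (p = 0.0809, adjusted 0.0971), and 0.73 without. For LAMB1 and LAMC1, chains of the same laminins, r was 0.52 (permutation p = 0.0685, adjusted 0.0822) and rho 0.58 (p = 0.0711, adjusted 0.0971). Without the arrays farthest out on LAMB1, the low SD array among them, r was 0.72. For COL4A1 and LAMB1 r was 0.33 (permutation p = 0.301, adjusted 0.301) and rho 0.45 (p = 0.133, adjusted 0.133), and r was 0.22 without the farthest arrays. The pairs were chosen with the data known, and all genes of an array share its RNA and its scan.

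**Figure D5:**
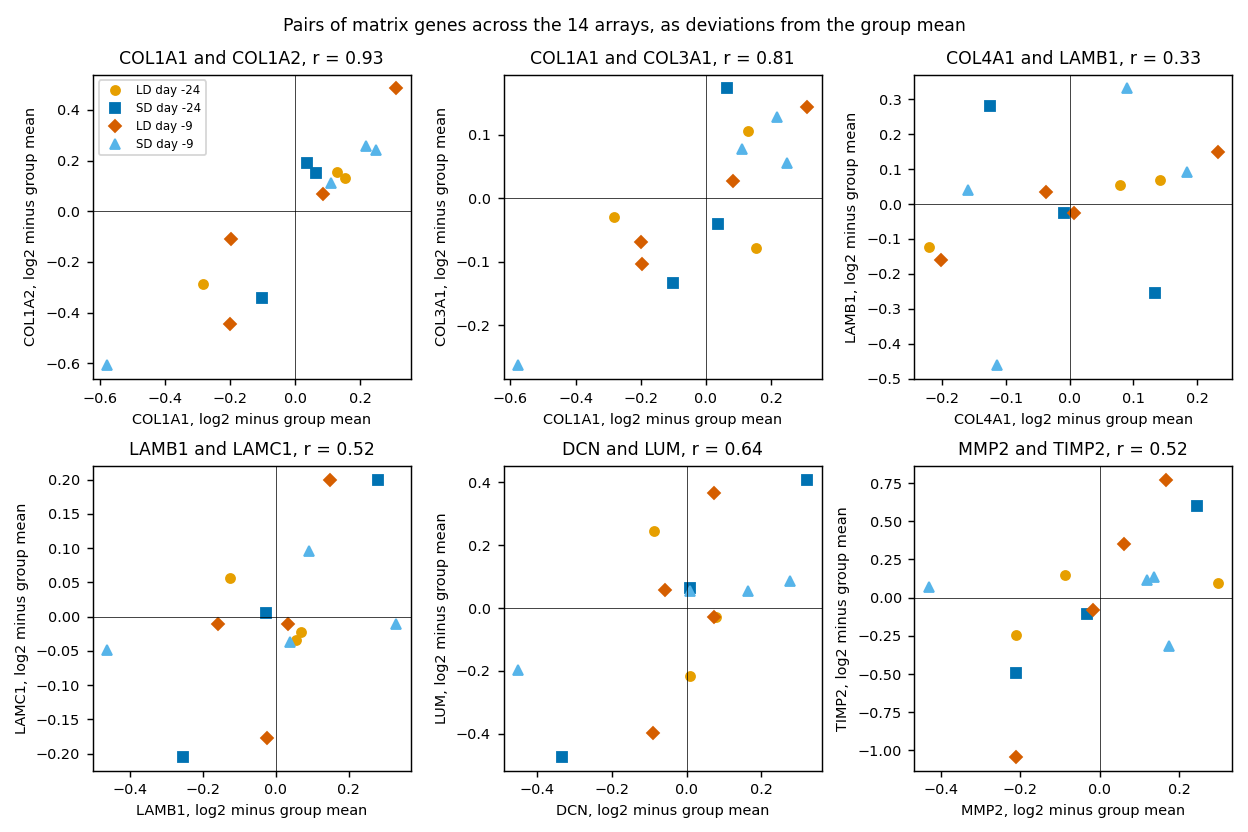
Log2 signal of 6 gene pairs in the 14 arrays, each as its difference from the group mean, by group. COL1A1 and COL1A2 lie along a line (r = 0.93), and COL4A1 and LAMB1 do not (r = 0.33).

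Genes that make, process and crosslink collagen, which are no members, were examined beside them. Of 24 listed, 19 were measured, and 0 passed the adjusted p of 0.05 by limma in any comparison. At day -9, 17 of 19 were lower in SD (median -0.26), where 60.3% of all genes were lower (median -0.04). An unadjusted p under 0.05 by limma was found for 3 of the 19, and for 2.56% of all genes. At day -24, 14 of 19 were higher in SD (median 0.11), where 40.1% of all genes were lower (median 0.04). The interaction was below 0 for 17 (median -0.44), and for 63.4% of all genes (median -0.09). The mean deviation of the list at day -9 was 0.05 to 0.35 in LD and -0.29 to -0.02 in SD, without overlap, with the high LD array highest and the low SD array lowest. PCOLCE2, an enhancer of procollagen processing, read 6.29, 6.93 and 6.31 in LD and 7.15, 7.12 and 6.88 in SD at day -24, and 7.32, 6.99, 8.20 and 6.39 in LD and 6.61, 6.48, 6.53 and 6.10 in SD at day -9. LD at day -9 was higher than SD in all arrays but one, the difference was -0.80 (95% interval -1.44 to -0.15) and the interaction -1.34. Without the high LD array the day -9 difference was -0.47. CTSK (cathepsin K), a collagen-cutting lysosomal protease, read 10.41, 10.43, 10.64 and 9.95 in LD and 9.75, 10.13, 9.997 and 9.98 in SD at day -9 and differed by -0.40 (95% interval -0.70 to -0.10), adjusted p = 0.984 by limma. P4HA3, a prolyl hydroxylase of procollagen with a dim probe set, differed by -0.52 at day -9, and by -0.34 without the high LD array.

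Of 32 further matrix glycoproteins and proteoglycans, 28 were measured, and 22 were lower in SD at day -9 (median -0.19). Over all genes, 60.3% were lower in SD at that day (median -0.04). EMILIN1 and EFEMP2, both of elastic fibres, differed by -0.36 and -0.58, adjusted p = 0.984 for each by limma, and EFEMP2 was at -0.34 without the low SD array. Between days, ECM1 was 0.73 higher at day -9 in LD (adjusted p = 0.651, limma) and THBS3 differed by -0.45 (the same adjusted p), or by -0.23 without replicate 1 of LD at day -24. For the matrix receptors (15 of 25 measured), 8 were below 0 at day -9, with a median of -0.02 and 0 with an unadjusted p under 0.05. In the plasminogen system and hyaluronidases (14 of 17 measured), 11 were below 0 (median -0.15), again with 0 such p-values. Its shedding proteases ADAM10 and ADAM12 were lower at day -9 than at day -24 with the photoperiods averaged, with differences of -0.36 and -0.56 (adjusted p = 0.636 for ADAM10, limma). No gene of these lists passed the adjusted test by limma in any comparison.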

How the data were processed

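Mammary biopsy RNA of 14 samples was labelled and hybridised to Affymetrix bovine arrays, per the labels' protocols. The authors deposited log2 values made with RMA, per the submitters' processing notes; the software version is not given in the sources used here. The table held 24128 probe sets, of which 112 were array controls and were not tested. Of the rest, 13292 had a single gene symbol, 86 had several and 10638 had none. Groups came from the labels. Group means over all 14 arrays were fitted with limma 3.58.1 in R 4.3.3, with 10 residual degrees of freedom, and 7 contrasts were tested two-sided with Benjamini-Hochberg adjustment over 24016 probe sets, at an adjusted p of 0.05. The number of arrays limits the precision. The fit was tested on simulated data. Pair correlations used 100000 permutations of arrays within groups (scipy 1.17.1).

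The members, lists and tests were chosen with earlier results of these data known. Named in every case were 15 genes, and singled out in each comparison were the 6 matrix probe sets with the smallest p. Not all values of the latter are printed above. Left out were, among others, a LAMC1 probe set, at -0.31 between days with the photoperiods averaged. Also left out were the SD minus LD differences at day -24 of a COL11A1 probe set, -0.27, and of TIMP4, -0.53. Other genes given with values, COL27A1, COL5A3, FMOD, LUM, TIMP3 and the pathway genes among them, were singled out after their values were seen. Settings varied were the replicate block, a signal filter, the variance prior, array weights, a second quantile normalisation, median centring, the groups in the fit, the probe set per gene and left-out arrays.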

Additional observations from a re-analysis of the deposited data

Results flagged for a closer look

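In the 2 groups of 4 arrays, 11 of 124 gene and group sets held an array far from the other 3 (a gap to the nearest above Dixon's 95% critical share of the range); that is 8.87% of the sets, where 7.4% of all gene and group sets held one and chance gives about 1 in 20, or 6.2 sets. Of the 11, 6 were low values of SD day -9 replicate 1, or 9.68% of the matrix genes, where this array held such a low value for 2.56% of all genes. There COL1A1 was at 11.42 (other SD arrays 12.11 to 12.25), COL1A2 at 11.21 (11.93 to 12.08), and COL21A1 at 5.36 (7.38 to 7.43). ELN was at 6.72 (7.43 to 7.52), LUM at 10.15 (10.40 to 10.44) and MMP2 at 10.31 (10.86 to 10.91) in that array. SD day -9 replicate 4 was low for COL11A1, at 3.51 (5.13 to 5.24), and for TIMP2, at 9.97 (10.36 to 10.42). In LD day -9, COL6A1 was high in replicate 3, at 10.29 (10.003 to 10.03), HAS1 in replicate 2, at 3.99 (3.84 to 3.86), and MMP9 in replicate 1, at 6.15 (3.62 to 4.04). The part of these arrays' cell makeup or RNA in the values was not tested.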

How the results depend on the processing

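No matrix probe set passed an adjusted p of 0.05 by limma in any of 25 settings, and the lowest adjusted p of a named gene was 0.369. Of 1275 refits of 55 named gene results, 11, in 6 results, turned the sign. Only the 12008 brighter probe sets (48 of the matrix genes' 119) were fitted in one setting, so the counts come from fewer probe sets. Unadjusted p-values under 0.05 then numbered 1 between photoperiods at day -24 (2.08%, against 2.61% of all fitted), 5 at day -9 (10.4%, against 2.22%) and 1 averaged (2.08%, against 1.8%). Between days they numbered 8 in LD (16.7%, against 8.4%), 3 in SD (6.25%, against 4.54%) and 6 averaged (12.5%, against 8.44%). For the interaction they numbered 4 (8.33%, against 4.33%). The median over 35 genes was then -0.21 at day -9 (all genes -0.05) and -0.22 for the interaction (all genes -0.12). With array weights such p-values numbered 5 at day -24 (4.2%, against 4.29% of all probe sets), 18 at day -9 (15.1%, against 6.45%) and 13 averaged over days (10.9%, against 6.06%). COL4A1 at day -9 was then at 0.042. Without the 2 arrays that share many low probe sets, such p-values numbered 7 averaged over days (5.88%, against 2.0% of all probe sets) and 5 for the interaction (4.2%, against 1.95%). Without the high LD and the low SD array of day -9, an alternative chosen after seeing the data, the median was 0.018 at day -9 and 0.024 for the interaction, with COL4A1 at 0.066, COL3A1 at 0.033, FN1 at 0.090, SPARC at 0.081 and COL1A2 at 0.10 at day -9. The cause of these changes was not tested. With each array left out in turn, unadjusted p-values under 0.05 numbered 2 to 5 at day -24, 6 to 14 at day -9, 3 to 11 averaged over days, 6 to 18 between days in LD, 6 to 15 in SD, 6 to 14 averaged and 4 to 13 for the interaction. These counts are of matrix probe sets, and the share of all probe sets moved too. Between days in LD that share was 7.47% with all arrays and 3.85% without replicate 1 of LD at day -24. The median over the matrix genes ranged from -0.05 to 0.03 at day -24 and from -0.11 to -0.04 at day -9. At day -9 COL4A1 ranged from -0.12 to 0.028, POSTN from -0.18 to 0.51 and SPARC from -0.21 to 0.0093. Deviations of same-numbered arrays had correlations from -0.34 to 0.33 over 19 pairs, 9 of them over 0.1. Within a photoperiod the values were 0.33, 0.19 and -0.31 in LD and 0.04, 0.22 and 0.25 in SD. No reference was computed for these values, so they do not settle whether the number pairs arrays by cow. With a replicate block 0 matrix probe sets were called and 12 had an unadjusted p under 0.05 at day -9 (10.1%, against 3.73% of all). Dim probe sets limit what can be said of MMP14, HAS1, COL4A4 and MMP9.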

Other observations

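Markers of other cell types were read in the same arrays. At day -9 all 11 luminal epithelial markers were higher in SD (median 0.06), while 9 of 10 macrophage markers were lower (median -0.23). Over all genes the median was -0.04, with 60.3% below 0. The luminal count rested on SD day -9 replicate 1, where 10 of the 11 were above their own mean. Without that array KRT8, KRT18, KRT19, KRT7, CLDN4 and LALBA were lower in SD on average, and the rest higher. In SD day -9 replicate 1 the mean deviation over the genes of collagen synthesis and crosslinking was -0.29. Of its endothelial markers all 11 were above their own mean, as they were in LD day -9 replicate 3, and 1 of 10 macrophage markers was. Its skin, skeletal muscle and adipocyte lists were uneven, with medians of 0.082, 0.11 and 0.21 beside single markers up to 0.99 (DSG1), 2.79 (MYH1) and 2.23 (CIDEA). In LD day -9 replicate 3 it was 0.55 over the TIMP genes and 0.35 over the genes of collagen synthesis and crosslinking. No gene of these lists passed the adjusted test by limma.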
